A study of Mus musculus with 10 samples.

Results

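ERdj5-KO mice were compared with wild-type (WT) mice without induced colitis, gene by gene, in whole colon. The comparison used the 4 libraries of mice that drank water without dextran sulfate sodium (DSS), 2 from WT and 2 from ERdj5-KO mice, out of 10 libraries in all. The other 6 libraries came from WT and ERdj5-KO mice given 2% DSS, 3 of each genotype. They were fitted in the same model, so they shared in the filter on low counts and in the estimate of spread behind every call. Their levels are given below only where a gene or list of the untreated comparison is followed into colitis. Of 29320 genes in the count table, 20472 had enough reads to be tested.

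ERdj5, the product of Dnajc10, is a reductase of the endoplasmic reticulum (ER) that carries a J domain, through which it works with the chaperone BiP, and thioredoxin-like domains, with which it breaks disulfide bonds of proteins that are to be refolded or sent to degradation. Goblet cells of the colon depend on such enzymes because MUC2, the main component of the mucus layer, is rich in disulfide bonds. The healthy colon also carries a low level of immune activity. Interferons released by lymphocytes and epithelial cells act through STAT proteins on target genes, whose promoters often hold an interferon-stimulated response element or a gamma-activated site, and raise antiviral proteins, GTPases and the machinery of antigen presentation.

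All animals in the 4 groups were 8-week-old females sampled on Day 5. The untreated WT mice carried no deletion and received no agent, and the untreated ERdj5-KO mice lacked ERdj5 and likewise received no agent. The WT animals were C57BL/6 mice from a commercial breeder, and the knockout line came from a repository. No source used here calls them littermates, so the deletion and the origin of the mice cannot be told apart. The sample labels number separate colons within a group but do not say whether each is 1 mouse, so p-values here rest on differences between libraries, which may be partly technical. The untreated groups are smaller here than the group size stated by the study, and any further sample was not analysed here. The libraries are named by the number in the count table (untreated WT libraries 2 and 3, untreated KO libraries 2 and 3).

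The untreated libraries held 49689389 to 66844376 counted reads, within the range of all 10 (49689389 to 72197887). Libraries of 1 group differed by more than sampling noise, with a mean chi-square per gene of 36.8 for the WT pair and 39.2 for the KO pair, so none was counted as a duplicate. Transcripts of the mitochondrial genome took 5.28% and 5.75% of the reads in WT and 8.30% and 7.60% in KO mice, so the genotypes did not overlap in this share, and its part in the results was not tested. Markers of colon epithelium were present in all 4 libraries. The lowest level of the keratin gene Krt8 was 4869 CPM (counts-per-million, which are read counts relative to the library total after TMM scaling), and that of the intestinal transcription factor gene Cdx2 was 15.4 CPM. The tissue is bulk RNA, so fewer cells of a type and less RNA per cell cannot be told apart.

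Dnajc10 (gene ID 66861, chromosome 2, 80315446 to 80354055 of GRCm38.p6) stood at 113 and 132 CPM in the untreated WT libraries and at 18.4 and 20.03 CPM in the untreated KO libraries. Its log2 fold change of KO against WT, given here and throughout ± SE, was -2.67 ± 0.15. The p of edgeR's quasi-likelihood test, adjusted after Benjamini and Hochberg over all 20472 genes, was 0.000108, and both KO libraries lay below both WT libraries as their labels imply. Without DSS 2016 genes differed between the genotypes at an adjusted p under 0.05, which is 9.85% of those tested. Of these, 793 (3.87%) were higher and 1223 (5.97%) were lower in KO mice. The falls were also larger in size, since 504 lower genes and 89 higher genes differed by over 4-fold, and 245 and 27 by over 8-fold. The median log2 fold change of all genes tested was 0.01.

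**Figure D1:**
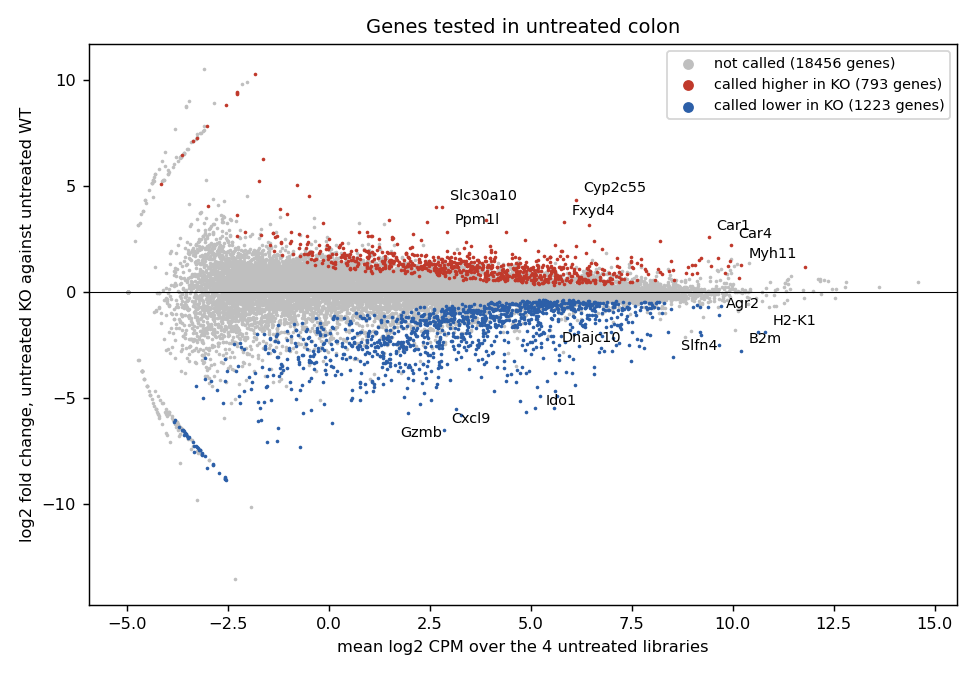
Each point is 1 of the 20472 genes tested, with its mean log2 CPM over the 4 untreated libraries on the x axis and its log2 fold change of untreated KO against untreated WT mice on the y axis. Red points are the 793 genes called higher and blue points the 1223 called lower at an adjusted p under 0.05, and the named falls reach further from 0 than the named rises.

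These counts depended on each library, since leaving out 1 of the 4 leaves a group with a single library whose spread is taken from the others. Without untreated WT library 2 or 3 there were 557 and 628 calls, and without untreated KO library 2 or 3 there were 345 and 304. Lower genes outnumbered higher ones in all 4 of these fits (435 against 122, 508 against 120, 230 against 115 and 212 against 92). On leaving out DSS-treated KO library 1 or 4, 2897 and 2900 genes were called. When the fit held the 4 untreated libraries alone, 3819 genes were called, 1895 higher and 1924 lower, so the excess of falls shrank to 49.6% higher against 39.3% with all 10 libraries.

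The largest falls were genes of the interferon response and of cytotoxic lymphocytes. Cxcl9 (chromosome 5, 92321331 to 92328079), which encodes a chemokine induced by interferon-gamma that attracts T cells, stood at 64.1 and 70.2 CPM in WT and at 0.850 and 0.658 CPM in KO mice. This was a log2 fold change of -6.49 ± 0.65 (edgeR adjusted p = 0.00134). Ido1 (chromosome 8, 24584133 to 24596952), a tryptophan-degrading enzyme, was at 190 and 285 CPM in WT and 7.2 and 3.63 CPM in KO mice (log2 fold change -5.46 ± 0.91, edgeR adjusted p = 0.00872). Both KO libraries lay far below both WT libraries for each gene. The call for Cxcl9 held in all 17 alternative settings, whereas that for Ido1 was lost without untreated KO library 2 or 3 (highest edgeR adjusted p = 0.0807).

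Of 25 genes encoding interferon-gamma-induced GTPases and other targets of this cytokine, 22 fell and 0 rose, with a median log2 fold change of -3.27. Tgtp1, a GTPase that acts against intracellular parasites in mice, was at 214 and 203 CPM in WT and 4.25 and 4.05 CPM in KO mice (log2 fold change -5.65 ± 1.05, edgeR adjusted p = 0.0130). Its neighbour Tgtp2 is nearly identical, so the split of reads between this pair is uncertain. Iigp1, of the same GTPase family, was at 315 and 322 CPM in WT and 8.82 and 5.61 CPM in KO mice (log2 fold change -5.47 ± 1.03, edgeR adjusted p = 0.0133). The calls for Tgtp1, Tgtp2 and Iigp1 were lost without either untreated KO library (largest adjusted p for Iigp1 0.108 by edgeR). Guanylate-binding proteins moved alike, with Gbp4 at 82.7 and 82.5 CPM in WT and 4.79 and 6.27 CPM in KO mice, Gbp6 at 85.9 and 86.8 against 5.38 and 6.49 CPM, and Gbp10 at 25.9 and 26.3 against 1.40 and 1.85 CPM. The 22 calls became 12 without untreated WT library 2, 12 without untreated WT library 3, 4 after dropping untreated KO library 2 and 3 without untreated KO library 3. The summed level of the 25 genes was 3700 and 3657 CPM in WT and 585 and 473 CPM in KO mice, so the genotypes stayed apart in each library.

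Antiviral genes that type I interferons also induce fell as a group. Of 36 tested, 33 fell and 0 rose (median log2 fold change -2.52). Ifit2, which binds foreign RNA, was at 280 and 233 CPM in WT and 5.81 and 14.3 CPM in KO mice (log2 fold change -4.66 ± 0.84, edgeR adjusted p = 0.0115). Isg15, a ubiquitin-like modifier, was at 227 and 187 CPM in WT and 5.62 and 23.9 CPM in KO mice (log2 fold change -3.80 ± 0.76, edgeR adjusted p = 0.0163). Ifi44 was at 1.01 and 7.2 CPM in the KO libraries, both below the 120 and 94.5 CPM of WT mice. Oas2, which makes the activator of RNase L, was at 246 and 174 CPM in WT and 3.92 and 18.8 CPM in KO mice. In each of these genes untreated KO library 2 was the lowest of the 4. The number that fell was 10 without untreated WT library 2, 17 without untreated WT library 3, 1 after dropping untreated KO library 2 and 16 without untreated KO library 3. The abundant members Ifit1bl1 (1268 and 962 against 293 and 317 CPM) and Oasl2 (611 and 559 against 33 and 91.6 CPM) were among the 10 largest falls in CPM, as were the interferon-induced genes Slfn4 (mean 1101 against 131 CPM) and Rnf213 (mean 587 against 94.7 CPM).

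Irf7 and Ifng, which act in interferon production and were picked after their values had been seen, were lower too. Irf7, which amplifies type I interferon production, was at 527 and 413 CPM in WT and 70.8 and 128 CPM in KO mice (log2 fold change -2.24 ± 0.52, edgeR adjusted p = 0.0281). Ifng itself, which encodes interferon-gamma, was near the detection limit, at 2.85 and 2.23 CPM in WT and 0.0395 and 0 CPM in KO mice (edgeR adjusted p = 0.00981).

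The promoters of these genes were read for the 2 interferon motifs, and 4 windows are shown because they hold the motifs in different arrangements. They were chosen after the values of their genes had been seen. Each runs from 250 bases before to 50 bases after the start of the gene, 5′ to 3′ along the gene's strand, and was taken from RefSeq (GRCm38.p6). Capitals mark the core of the interferon-stimulated response element (GAAANNGAA, or TTCNNTTTC on the other strand) and the gamma-activated site (TTCNNNGAA, which is its own reverse complement). The windows are chr5:92328030-92328329 (minus strand) for Cxcl9, chr11:48992197-48992496 (minus strand) for Tgtp1, chr4:156200769-156201068 (minus strand) for Isg15 and chr2:122147437-122147736 (plus strand) for B2m.
Cxcl9: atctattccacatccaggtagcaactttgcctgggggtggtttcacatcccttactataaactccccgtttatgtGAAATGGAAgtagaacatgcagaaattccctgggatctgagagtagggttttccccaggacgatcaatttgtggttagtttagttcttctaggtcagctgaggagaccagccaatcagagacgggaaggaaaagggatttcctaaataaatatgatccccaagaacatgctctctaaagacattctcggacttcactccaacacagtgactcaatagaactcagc
Tgtp1: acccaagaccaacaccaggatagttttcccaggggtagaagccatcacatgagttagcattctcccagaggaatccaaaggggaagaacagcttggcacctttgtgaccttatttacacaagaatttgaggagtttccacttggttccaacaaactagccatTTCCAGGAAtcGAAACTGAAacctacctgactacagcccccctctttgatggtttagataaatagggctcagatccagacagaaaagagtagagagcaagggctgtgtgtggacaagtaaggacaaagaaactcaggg
Isg15: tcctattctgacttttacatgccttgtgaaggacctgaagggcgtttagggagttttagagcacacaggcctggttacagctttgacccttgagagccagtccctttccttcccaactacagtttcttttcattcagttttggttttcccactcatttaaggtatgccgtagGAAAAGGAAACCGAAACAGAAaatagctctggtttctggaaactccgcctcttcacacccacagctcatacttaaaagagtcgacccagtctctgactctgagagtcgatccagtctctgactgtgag
B2m: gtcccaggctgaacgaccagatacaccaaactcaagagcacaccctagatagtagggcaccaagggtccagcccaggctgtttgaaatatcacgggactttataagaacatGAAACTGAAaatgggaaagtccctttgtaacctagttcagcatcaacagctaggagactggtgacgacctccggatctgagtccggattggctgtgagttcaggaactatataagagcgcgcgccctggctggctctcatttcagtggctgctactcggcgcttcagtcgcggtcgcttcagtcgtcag

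In the Tgtp1 window a gamma-activated site began at -88 and a response element at -77 from the start of the gene, with 2 bases between them. The Isg15 window held 3 overlapping response elements, at -78, -72 and -66. Cxcl9 had 1 at -175 and B2m 1 at -139. Of the 55 genes of the 2 interferon lists that fell, 38 had a promoter in the RefSeq table, and 27 of these (71.1%) held the response element and 11 (28.9%) the gamma-activated site. Of all 42 tested members of the 2 lists with a promoter, fallen or not, nearly the same shares held them (71.4% and 28.6%). The shares therefore describe the lists and not the fall. A gene was counted if any of its windows held the motif, and among all 14569 tested genes with a promoter the shares were 8.91% and 8.69%. Counted by window, over all 32851 windows of this length, they were 8.56% and 8.30%. Among all genes called lower with a promoter in the table (916), 18.2% held the response element and 12.3% the gamma-activated site, against 7.78% and 8.97% of the 591 called higher. Both motifs were searched on both strands, and where they overlapped each was counted. A match of letters is not a binding site, and no test was made of these shares.

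Genes of antigen presentation fell with the interferon genes. Of 24 genes of MHC class I, peptide loading and the immunoproteasome, 18 fell and 0 rose (median log2 fold change -1.64). B2m, the light chain of every class I molecule, was at 3156 and 3060 CPM in WT and 396 and 522 CPM in KO mice. Its log2 fold change was -2.76 ± 0.37 (edgeR adjusted p = 0.00424), and the fall of 2649 CPM was the largest of all genes called. The class I heavy chains H2-K1 (3465 and 3386 against 839 and 1027 CPM) and H2-D1 (2989 and 3038 against 797 and 858 CPM) had log2 fold changes of -1.88 ± 0.30 (edgeR adjusted p = 0.00775) and -1.86 ± 0.26 (edgeR adjusted p = 0.00442). Tap1, a subunit of the peptide transporter, was at 291 and 289 CPM in WT and 43.4 and 42.4 CPM in KO mice. Psmb9, a subunit of the immunoproteasome, was at 166 and 188 against 30.6 and 30.3 CPM, and Nlrc5, the transactivator of class I genes, at 123 and 103 against 8.88 and 8.11 CPM. The nonclassical genes H2-Q6 and H2-Q7 also fell, but class I genes resemble each other and the split of reads among them is uncertain. Calls for B2m and H2-D1 held in all 17 settings, and that for H2-K1 was lost without untreated KO library 2 or 3. The list's 18 calls became 7 without untreated KO library 2 and 7 without untreated KO library 3.

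Of 11 MHC class II genes, 5 fell and 0 rose (median log2 fold change -1.81), among them H2-Ab1 (653 and 644 CPM in WT, 194 and 163 CPM in KO mice) and H2-Eb1 (476 and 456 against 138 and 101 CPM), which encode the chains that present peptides to CD4 T cells, and Ciita, their transactivator (65.5 and 53.2 against 22.9 and 10.3 CPM). The groups did not overlap for these 3 genes. None of the 5 passed the edgeR test when any of the 4 untreated libraries was left out, and 3 did on leaving out DSS-treated WT library 3. Ly6a (Sca-1), an interferon-inducible surface protein, and Ly6e, of the same family, were also among the largest falls in CPM (mean 1934 against 341 CPM and 1201 against 294 CPM), and both calls held in all 17 settings.

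**Figure D2:**
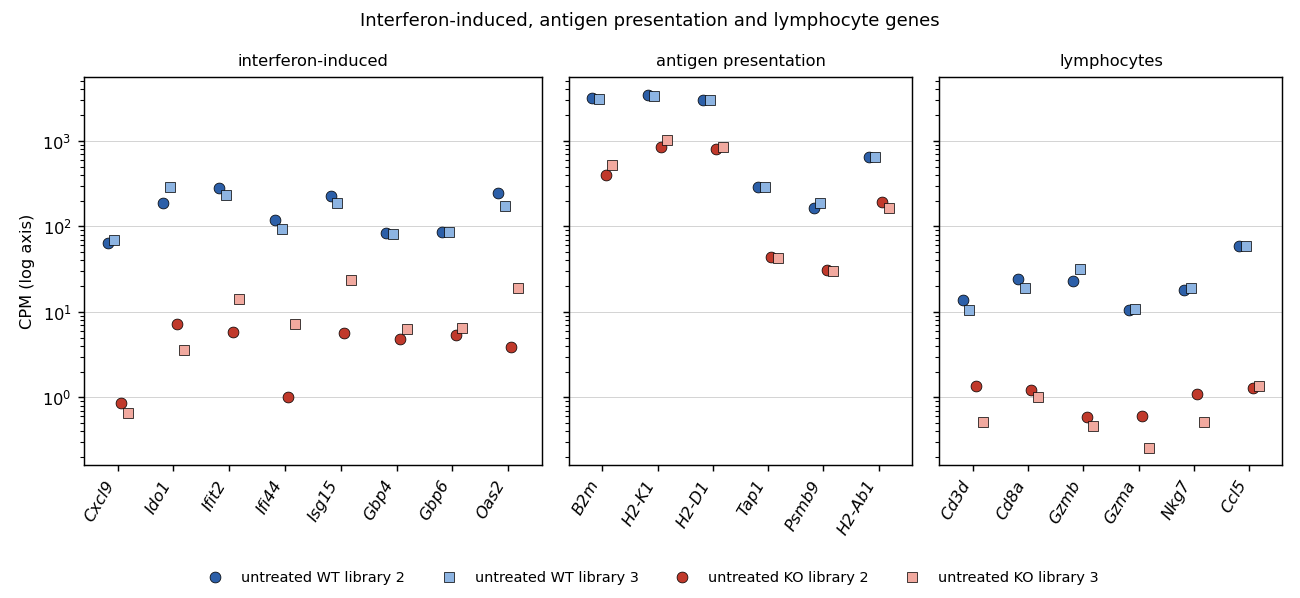
Levels of interferon-induced, antigen presentation and lymphocyte genes in CPM on a log axis, with 1 point for each of the 4 untreated libraries (blue WT, red KO, circles library 2, squares library 3). In all 20 genes both KO points lie below both WT points, from 3156 and 3060 against 396 and 522 CPM for B2m to 10.5 and 10.9 against 0.613 and 0.258 CPM for Gzma.

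Transcripts of T cells and cytotoxic lymphocytes were lower in the same libraries. Of 20 T cell markers, 16 fell and 0 rose (median log2 fold change -3.38). Cd8a, a chain of the coreceptor of cytotoxic T cells, was at 24.2 and 18.8 CPM in WT and 1.21 and 1.00 CPM in KO mice (log2 fold change -4.29 ± 0.37, edgeR adjusted p = 0.000746). Cd3d, a chain of the T cell receptor complex, was at 13.9 and 10.6 against 1.36 and 0.515 CPM, and Icos, a costimulatory receptor, at 9.73 and 6.19 against 0.475 and 0.243 CPM. The summed level of the 20 markers was 337 and 222 CPM in WT and 60.6 and 53.8 CPM in KO mice. Without untreated KO library 3, 9 members were called.

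Among 22 markers of cytotoxic, intraepithelial and natural killer lymphocytes, 19 fell and 0 rose (median log2 fold change -3.62). Gzmb (chromosome 14, 56258836 to 56262334), the killing protease granzyme B, was at 23 and 31.9 CPM in WT and 0.593 and 0.458 CPM in KO mice (log2 fold change -5.71 ± 0.46, edgeR adjusted p = 0.000608). The other granzyme gene among the largest falls, Gzma, was at 10.5 and 10.9 against 0.613 and 0.258 CPM. Prf1, the pore-forming perforin, was at 2.67 and 2.91 against 0.0791 and 0.0858 CPM, and Tbx21, the transcription factor T-bet that drives interferon-gamma production, at 4.74 and 3.09 against 0.0791 and 0.0715 CPM. Ccl5, a chemokine that cytotoxic cells release, was at 59.3 and 59.4 against 1.29 and 1.34 CPM (log2 fold change -5.49 ± 0.73, edgeR adjusted p = 0.00424). The 19 calls became 12 without untreated KO library 3. Gzmb, Gzma, Ccl5, Nkg7 and Ms4a4b, a membrane protein gene of T cells (39.9 and 27.4 against 1.31 and 0.715 CPM), kept their calls in all 17 settings.

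Of 14 genes of regulatory T cells and checkpoint receptors, 9 fell and 0 rose (median log2 fold change -2.33), including Pdcd1 (PD-1, 3.02 and 2.61 against 0.217 and 0.100 CPM), Ctla4 (8.81 and 4.47 against 1.13 and 0.272 CPM) and Foxp3 (0.884 and 0.214 against 0.0791 and 0.0858 CPM). The inhibitory receptor genes Pdcd1 and Ctla4 fell with the activating markers. The call for Foxp3, a transcription factor gene, held in 6 of the 16 settings that tested it. Among others, it was lost with library totals alone, with the replicate block and with the untreated libraries alone. It was also lost on leaving out any DSS-treated WT library. The 9 calls became 4 without untreated WT library 2, 3 after dropping untreated KO library 2 and 2 without untreated KO library 3.

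Macrophages and dendritic cells followed with smaller changes. Of 20 macrophage and monocyte markers, 11 fell and 0 rose (median log2 fold change -1.91), among them Ccr2, the receptor that recruits monocytes (26.0 and 27.1 CPM in WT, 2.65 and 3.29 CPM in KO mice), and C1qb, a complement subunit made by resident macrophages (75.7 and 64.1 against 12.8 and 20.1 CPM). Without untreated WT library 2, WT library 3, KO library 2 or KO library 3 there were 4, 5, 2 and 4 calls. Of 14 dendritic cell markers 8 fell, such as Xcr1 and Clec9a of the subset that cross-presents antigen (3.12 and 2.99 against 0.455 and 0.329 CPM, and 5.10 and 2.97 against 0.712 and 0.672 CPM). The member that rose was Cd207 (langerin), from 0.0804 and 0 CPM to 2.14 and 1.03 CPM (log2 fold change 5.22 ± 0.99, edgeR adjusted p = 0.0195). The 8 calls became 3 without untreated WT library 2, 2 after dropping untreated KO library 2 and 2 without untreated KO library 3. Of 10 tested markers of mast cells and eosinophils, 3 fell, the mast cell proteases Mcpt1, Mcpt2 and Cma1 (14.2 and 18 against 2.77 and 1.43 CPM for the last).

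B cell markers were lower on balance but were not called. Their median log2 fold change was -1.37, with 18 of 20 negative. None of the 20 passed edgeR's quasi-likelihood test, 1 had an unadjusted p under 0.05, DESeq2 called 1 lower and the fit with a replicate block called 2. Their summed level was 745 and 228 CPM in the WT libraries and 368 and 163 CPM in the KO libraries, so the genotypes overlapped and library 2 was the higher of each pair. None of 19 genes of lymphoid follicle organisation passed the edgeR test either (median -0.78, 16 negative, 3 at an unadjusted p under 0.05, 1 lower by DESeq2 and 3 with the replicate block). Of 20 tested genes of plasma cells and immunoglobulin constant regions, 5 fell and 1 rose. Ighg2c, which encodes the constant part of the IgG2c heavy chain, was at 433 and 67.7 CPM in WT and 6.56 and 10.4 CPM in KO mice (log2 fold change -4.88 ± 1.21, edgeR adjusted p = 0.0354), and its reads are uncertain because immunoglobulin genes have near-identical copies. Prdm1, the transcription factor of plasma cell differentiation, was at 11.8 and 11.1 against 4.07 and 3.86 CPM. The 5 calls became 0 without untreated WT library 2, untreated KO library 2 or untreated KO library 3, 3 on leaving out DSS-treated WT library 3, 2 on leaving out DSS-treated WT library 4 and 8 on leaving out DSS-treated KO library 4. Untreated WT library 2 held the most B cell transcripts of the 4 libraries and the most of Ighg2c.

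**Figure D3:**
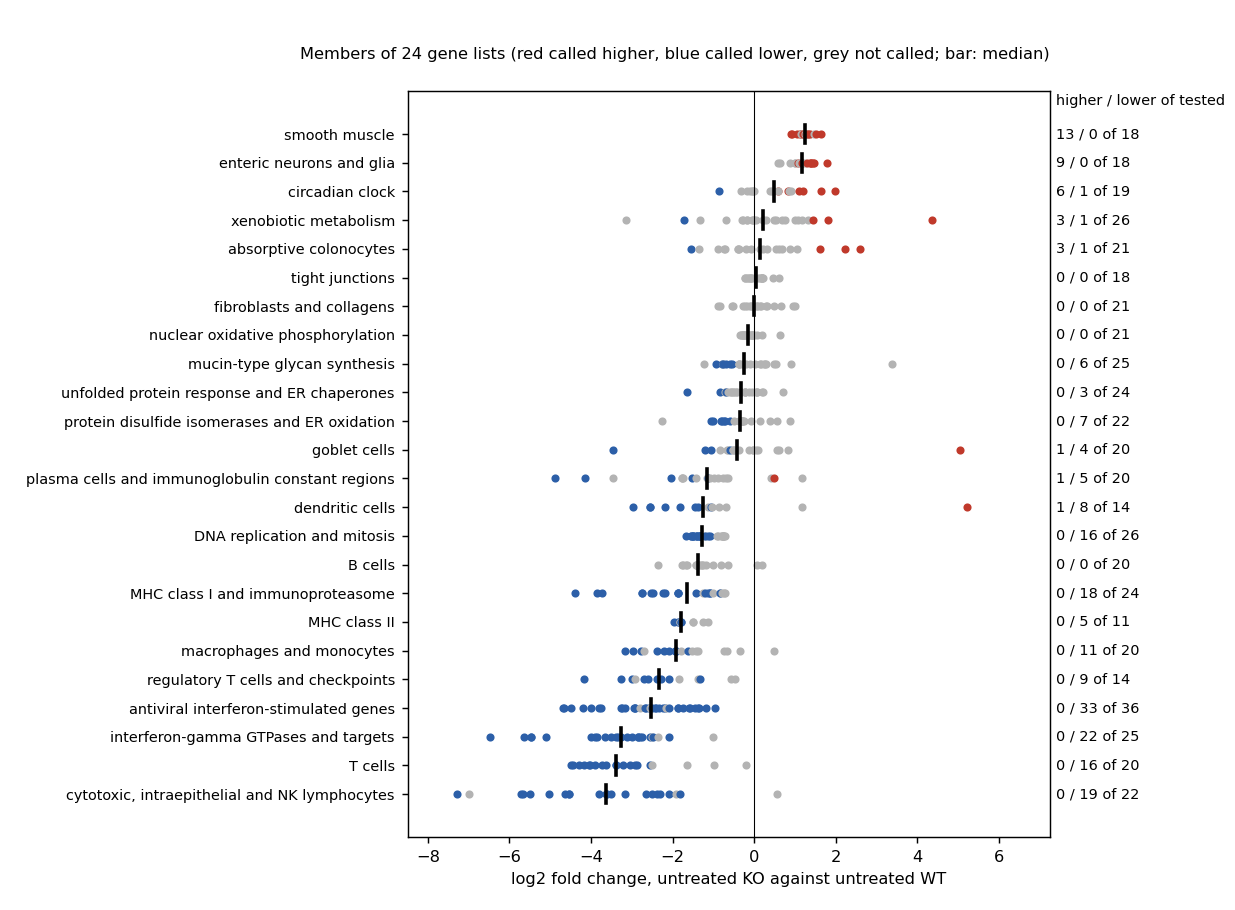
Log2 fold change of untreated KO against untreated WT mice (x axis) for the tested members of 24 gene lists (1 list per line), with 1 point per gene, red if called higher, blue if called lower and grey if not called, and a bar at each list's median. Of the lists drawn, the 4 with the lowest medians, -3.62 to -2.52, are those of cytotoxic lymphocytes, T cells and the interferon response, and smooth muscle has the highest, 1.26.

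Inflammatory cytokines and chemokines, Ifng included, were mostly at low levels in untreated colon. Of 25 tested (28 in the list), 7 fell, namely Ifng, Ccl4, Il21, Ccl8, Il12b, Ccl2 and Tnf, and Il18 rose. Ccl8, a monocyte attractant, was at 27.4 and 26.4 CPM in WT and 0.692 and 1.26 CPM in KO mice (log2 fold change -4.76 ± 0.61, edgeR adjusted p = 0.00359), and this call held in all 17 settings. Tnf was at 4.89 and 5.39 against 1.42 and 0.772 CPM, and Il12b, a subunit of interleukin-12 that drives interferon-gamma, at 1.69 and 0.970 against 0.119 and 0.100 CPM. Il18, an epithelial cytokine, went from 55.9 and 44.7 to 110 and 103 CPM (log2 fold change 1.08 ± 0.29, edgeR adjusted p = 0.0470). The call for Il18 held in 9 of the 17 settings. Among others, it was lost on leaving out any DSS-treated WT library or DSS-treated KO library 2. The neutrophil attractants Cxcl1 (0.145 and 0.230 against 0.119 and 0.172 CPM), Cxcl2 (0.129 and 0.164 against 0 and 0 CPM) and Cxcl5 (0.531 and 0.887 against 1.86 and 1.12 CPM) did not pass the test. The 7 calls became 3 without untreated WT library 2, 4 without untreated WT library 3, 2 without either untreated KO library and 11 on leaving out DSS-treated KO library 1 or 4.

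Of 20 tested antimicrobial and oxidase genes of the epithelium, 5 fell and 1 rose. Slpi, a secreted protease inhibitor with antibacterial activity, was at 70.9 and 77.2 CPM in WT and 7.22 and 8.31 CPM in KO mice. Its log2 fold change of -3.25 ± 0.16 (edgeR adjusted p = 6.01e-05) held in all 17 settings. Nos2, the inducible nitric oxide synthase, was at 8.96 and 12.0 against 1.25 and 0.844 CPM (log2 fold change -3.35 ± 0.48, edgeR adjusted p = 0.00542), a call lost without untreated KO library 3. The superoxide producer Nox1 (35.1 and 55.7 against 13.2 and 16.2 CPM) and Duoxa2, the maturation factor of DUOX2 (44.8 and 45.2 against 18 and 13.5 CPM), also fell. Ang4, an antibacterial ribonuclease, rose from 0.241 and 0 to 5.93 and 2.22 CPM (edgeR adjusted p = 0.0393), and this call was lost without any 1 of the 4 untreated libraries. The 5 falls became 3 without either untreated WT library or KO library 2, 2 without untreated KO library 3 and 8 on leaving out DSS-treated KO library 1. Clca4b, a member of the calcium-activated chloride channel regulator family, was at 229 and 324 CPM in WT and 10.03 and 8.48 CPM in KO mice (log2 fold change -4.90 ± 0.42, edgeR adjusted p = 0.000746) and kept its call in all 17 settings.

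Genes of DNA replication and mitosis were lower in untreated KO mice. Of 26, 16 fell and 0 rose (median log2 fold change -1.27). Ccna2, a cyclin of S phase and mitosis, was at 81.3 and 133 CPM in WT and 40.8 and 35.6 CPM in KO mice (log2 fold change -1.49 ± 0.26, edgeR adjusted p = 0.0102). Top2a, which untangles replicated DNA, was at 106 and 169 against 46.3 and 50.9 CPM, and Rrm2, a subunit of the enzyme that makes deoxynucleotides, at 22.9 and 32 against 6.84 and 10.4 CPM. For each of these genes untreated WT library 3 was the highest of the 4 libraries, and the summed level was 1087 and 1579 CPM in WT and 561 and 625 CPM in KO mice. The 16 calls became 2 without untreated WT library 3, 2 after dropping untreated KO library 2 and 0 by edgeR once the fit lost untreated KO library 3. The crypt base and stem cell markers did not follow, since 2 of 17 rose and 0 fell. They were Prom1, from 26.8 and 28.2 to 102 and 105 CPM (log2 fold change 1.92 ± 0.35, edgeR adjusted p = 0.0123), and Sox9, from 34.4 and 32.7 to 73.8 and 50.4 CPM. The call for Prom1 was lost without any 1 of the 4 untreated libraries, and that for Sox9 without any of these except KO library 3.

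The largest rises were genes of transport and of the surface epithelium. Cyp2c55 (chromosome 19, 39006940 to 39042690), a cytochrome P450 that oxidizes fatty acids, was at 17.8 and 15.1 CPM in WT and 183 and 490 CPM in KO mice. Its log2 fold change of 4.35 ± 0.64 (edgeR adjusted p = 0.00595) ranged from 3.47 to 4.90 over 17 settings, all of which called it. Slc30a10, a manganese exporter, was at 2.19 and 1.69 against 13.1 and 48.5 CPM, and for both genes untreated KO library 3 was the higher one. Fxyd4, a regulator of the sodium pump in colon epithelium, was at 18.7 and 17.4 CPM in WT and 182 and 174 CPM in KO mice (log2 fold change 3.30 ± 0.44, edgeR adjusted p = 0.00424). It was the only rise among 11 genes of aldosterone-responsive sodium transport in the 10-library fit, and there were 2 rises without untreated KO library 2.

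Among 21 markers of absorptive colonocytes, 3 rose and 1 fell (median log2 fold change 0.14). Car1, a carbonic anhydrase abundant in proximal colon, was at 263 and 295 CPM in WT and 1776 and 1602 CPM in KO mice (log2 fold change 2.60 ± 0.24, edgeR adjusted p = 0.00125), and it kept its call in all 17 settings. Car4, a membrane-bound carbonic anhydrase of surface cells, was at 543 and 385 against 2100 and 2237 CPM, and Slc20a1, a phosphate transporter, at 396 and 285 against 1079 and 1022 CPM. Slc51b, a subunit of the bile acid exporter, fell from 33.4 and 30.2 to 13.8 and 7.92 CPM. The chloride exchanger gene Slc26a3 (836 and 532 against 1338 and 1494 CPM) and the water channel gene Aqp8 (657 and 454 against 872 and 918 CPM) did not pass the test. The 3 rises became 1 without untreated WT library 3, untreated KO library 2 or untreated KO library 3, and 6 on leaving out DSS-treated KO library 1. Of 17 genes that mark position along the body axis (Hox genes and others), 0 passed edgeR's test, 3 had an unadjusted p under 0.05, and DESeq2 called 3 higher.

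Metabolic lists held a few rises, against 3.87% of all genes called higher. Of 21 genes of fatty acid oxidation and ketogenesis 2 rose, among them Acaa2, a thiolase of fatty acid oxidation, from 50.8 and 48.2 to 81.2 and 86.7 CPM, and none passed the edgeR test when any 1 untreated library was left out. Of 26 tested genes of xenobiotic metabolism 3 rose and 1 fell, which became 1 and 0 without any 1 of the 4 untreated libraries. Abcb1a, a drug efflux pump, went from 231 and 201 to 549 and 634 CPM. The peroxiredoxin gene Prdx6 had the largest rise in CPM (2430 and 2288 against 4944 and 5795 CPM), and mt-Rnr2, the large ribosomal RNA of mitochondria, stood at 515 and 657 against 1639 and 1601 CPM, with the limit that copies of it lie in the nuclear genome. The nuclear genes of oxidative phosphorylation did not follow, since 0 of 21 passed edgeR's test (2 at an unadjusted p under 0.05, 1 lower by DESeq2).

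Contractile genes of smooth muscle were higher in untreated KO mice. Of 18, 13 rose and 0 fell (median log2 fold change 1.26). Des, the muscle filament desmin, was at 371 and 543 CPM in WT and 1359 and 1464 CPM in KO mice (log2 fold change 1.63 ± 0.32, edgeR adjusted p = 0.0153). Myh11, the smooth muscle myosin heavy chain, was at 641 and 898 against 1651 and 2039 CPM (log2 fold change 1.26 ± 0.34, edgeR adjusted p = 0.0451), and Cnn1, calponin, at 269 and 418 against 942 and 1039 CPM. In each of these genes both KO libraries exceeded both WT libraries, and untreated WT library 2 was the lowest. The 18 genes summed to 5097 and 7604 CPM in WT and 14066 and 16584 CPM in KO mice. The 13 calls became 0 without untreated WT library 2, 3 without untreated WT library 3, 1 after dropping untreated KO library 2, 0 without untreated KO library 3 and 6 on leaving out DSS-treated WT library 4. At an unadjusted p under 0.05 all 18 passed in the 10-library fit.

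Nerve transcripts rose with those of muscle. Of 18 markers of enteric neurons and glia, 9 rose and 0 fell (median log2 fold change 1.18). Nos1, the nitric oxide synthase of inhibitory neurons, was at 9.71 and 10.9 CPM in WT and 26.3 and 29.9 CPM in KO mice (log2 fold change 1.45 ± 0.31, edgeR adjusted p = 0.0201), and Prph, the filament protein peripherin, at 8.01 and 8.17 against 21.4 and 21.3 CPM. None was called by edgeR when any 1 untreated library was left out, and there were 4 on leaving out DSS-treated WT library 4, 5 on leaving out DSS-treated KO library 2, 14 on leaving out DSS-treated KO library 4 and 3 when libraries were scaled by their totals alone. Other cells of the wall had no calls in the 10-library fit. Of 21 fibroblast and collagen genes 0 were called by edgeR or DESeq2 and 0 had an unadjusted p under 0.05, and of 8 genes of interstitial pacemaker cells 0 were called by either tool and 2 had an unadjusted p under 0.05. Of 6 markers of mesothelium, the outer lining of the gut, 0 passed the edgeR test (4 at an unadjusted p under 0.05, 1 higher by DESeq2), yet 5 had a positive log2 fold change, the median was 2.88, and 5 were called higher when the fit held the 4 untreated libraries alone. The summed level of the 6 markers went the other way, at 3694 and 3968 CPM in WT and 3405 and 3010 CPM in KO mice. Msln, picked after its values had been seen, was at 0.997 and 0.690 CPM in WT and 6.64 and 8.91 CPM in KO mice. The summed levels of muscle and nerve were higher in both KO libraries, in which the lymphocyte and interferon lists were lower. For nerve they were 118 and 127 CPM in WT and 255 and 299 CPM in KO mice. From untreated KO library 2 to 3, muscle and nerve went up. So did the antiviral (1169 to 1689 CPM) and cytotoxic lists (40.9 to 46.5 CPM). The T cell list (60.6 to 53.8 CPM) and the interferon-gamma list (585 to 473 CPM) went down. The part of muscle and nerve in the falls between genotypes was not tested.

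Genes of protein folding in the ER were slightly lower. Of 22 protein disulfide isomerases and enzymes of ER oxidation, 7 fell and 0 rose, with a median log2 fold change of -0.35 against 0.01 over all genes tested. Agr2, the isomerase that goblet cells need for MUC2, was at 1025 and 1316 CPM in WT and 559 and 558 CPM in KO mice (log2 fold change -1.07 ± 0.17, edgeR adjusted p = 0.00739). P4hb, which encodes PDI itself, was at 625 and 745 against 451 and 456 CPM, Pdia6 at 194 and 228 against 119 and 123 CPM, and Pdia3 (ERp57) at 792 and 943 against 530 and 523 CPM. Prdx4, which turns peroxide into disulfides, was at 36.3 and 43.4 against 17.6 and 22 CPM. The ER oxidase gene Ero1l (67.0 and 66.0 against 58.6 and 66.8 CPM) did not pass. The 7 calls became 4 without untreated WT library 2, 2 without untreated WT library 3 and 1 without either untreated KO library.

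Targets of the unfolded protein response showed no rise. Of 24 of them and ER chaperones, 3 fell (Chac1, Sdf2l1 and Hsp90b1) and 0 rose (median log2 fold change -0.33). Hspa5, which encodes BiP, was at 493 and 519 CPM in WT and 303 and 344 CPM in KO mice (log2 fold change -0.65 ± 0.25, edgeR adjusted p = 0.138). Ddit3, the stress-induced factor CHOP, was at 14.9 and 11.9 against 14.9 and 13.3 CPM, Xbp1 at 245 and 247 against 198 and 195 CPM, and Atf4 at 145 and 168 against 143 and 143 CPM, and none of the 3 passed. The 3 falls became 0 without untreated WT library 3, untreated KO library 2 or untreated KO library 3, 5 on leaving out DSS-treated KO library 4, and 11 when only the 4 untreated libraries were fitted. Apart from Dnajc10, none of the 11 J-domain cochaperones of the ER was called in the 10-library fit (Dnajc3 132 and 127 against 94.6 and 95.2 CPM, Dnajb9 30.2 and 23.4 against 28.0 and 33.2 CPM, Sec63 87.5 and 84.1 against 86.2 and 86.2 CPM). Of 20 genes of ER-associated degradation, Ube2j1, a ubiquitin-conjugating enzyme of the ER membrane, fell (log2 fold change -0.35 ± 0.10, edgeR adjusted p = 0.0483), and this call held in only 4 of the 17 settings and in none that left out an untreated library.

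**Figure D4:**
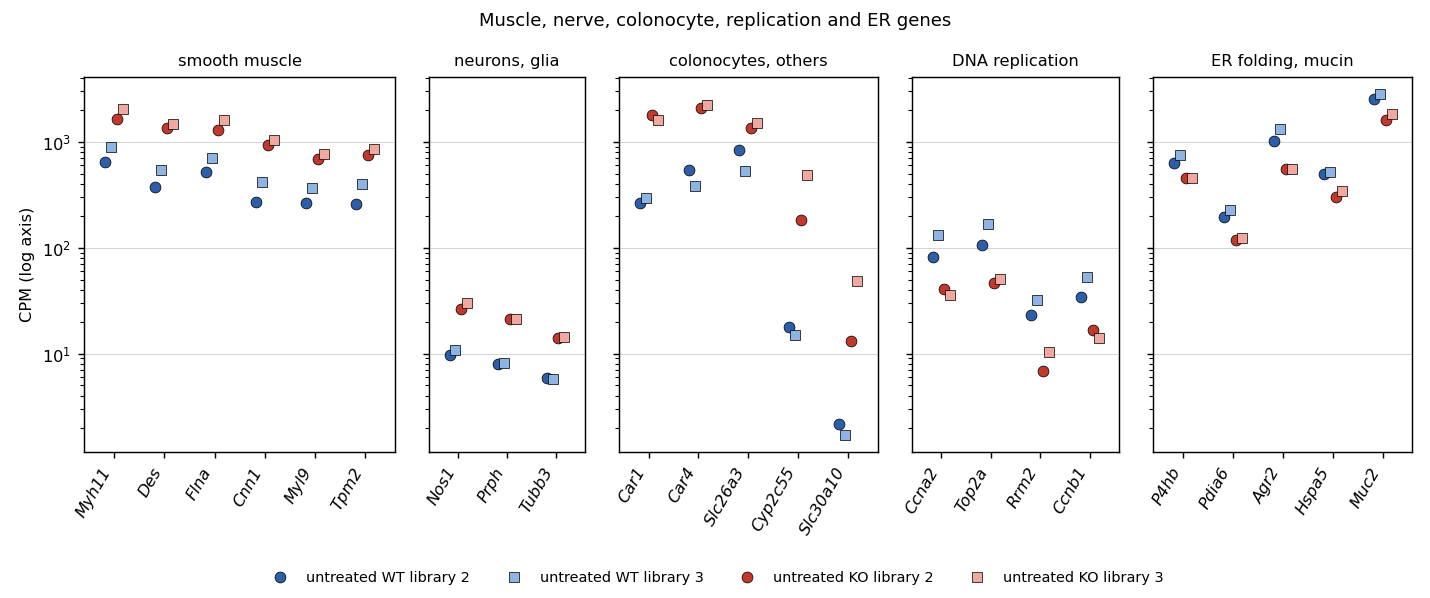
Levels of muscle, nerve, colonocyte, replication and ER genes in CPM on a log axis, with 1 point for each of the 4 untreated libraries (blue WT, red KO, circles library 2, squares library 3). KO points lie above WT points for the muscle and nerve genes (Des 1359 and 1464 against 371 and 543 CPM) and below them for the replication and ER genes (Agr2 559 and 558 against 1025 and 1316 CPM).

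Goblet cell markers changed unevenly. Of 20, 4 fell and 1 (Ang4) rose, with a median log2 fold change of -0.41. Muc2 was at 2566 and 2818 CPM in WT and 1624 and 1830 CPM in KO mice, and it did not pass the test (log2 fold change -0.64 ± 0.18, edgeR adjusted p = 0.0513), although the groups did not overlap and 7 of the 17 alternative settings called it lower (DESeq2 among them). Retnlb, an antibacterial peptide that type 2 cytokines induce in goblet cells, was at 16.1 and 20.4 against 1.27 and 1.99 CPM (log2 fold change -3.47 ± 0.46, edgeR adjusted p = 0.00410) and kept its call in all 17 settings. Spink4, a secreted protease inhibitor, was at 373 and 401 against 155 and 183 CPM. The lineage factors Atoh1 (44.1 and 47.7 against 27.6 and 39.1 CPM) and Spdef (29.1 and 30.8 against 27.6 and 26.9 CPM), the mucus protein gene Clca1 (2363 and 1963 against 2661 and 3696 CPM) and the trefoil factor gene Tff3 (634 and 575 against 588 and 693 CPM) did not pass. The 4 falls became 2 without either untreated WT library, 1 without either untreated KO library and 9 on leaving out DSS-treated KO library 1, and they numbered 9 with DESeq2.

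Of 25 enzymes that build mucin-type glycans, 6 fell and 0 rose (median log2 fold change -0.25). They included Galnt3 (63.3 and 77.7 CPM in WT, 37.0 and 37.2 CPM in KO mice) and Galnt1 (110 and 121 against 67.1 and 70.2 CPM), which attach the first sugar, and C1galt1, which extends it (45.2 and 44.8 against 24 and 28.4 CPM). The 6 calls became 3 without untreated WT library 2, 2 without untreated WT library 3, 1 after dropping untreated KO library 2 and 0 by edgeR once the fit lost untreated KO library 3. Of 6 tested transmembrane mucins only Muc4 was called, from 121 and 152 to 50.7 and 62.2 CPM (log2 fold change -1.27 ± 0.20, edgeR adjusted p = 0.00700), a call lost without untreated KO library 2. None of 18 tight junction genes was called by edgeR (1 at an unadjusted p under 0.05, 1 higher by DESeq2). Tjp1, which encodes ZO-1, was at 151 and 144 against 182 and 157 CPM, Cldn1 at 1.67 and 1.64 against 1.29 and 1.70 CPM, and Ocln at 92.6 and 85.2 against 128 and 117 CPM.

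Clock genes and cytosolic heat shock genes held some of the other rises. Of 19 clock genes, 6 rose and 1 fell. The output factors Dbp (41.5 and 35.9 CPM in WT, 119 and 122 CPM in KO mice) and Ciart (8.27 and 8.22 against 23.5 and 41.6 CPM) rose with Per3 (34.9 and 30.4 against 70.7 and 70.0 CPM), whereas the repressor Cry1 fell (17.4 and 17.4 against 7.34 and 11.7 CPM). The 6 rises became 0 by edgeR once the fit lost untreated WT library 2, untreated WT library 3 or untreated KO library 3 and 1 without untreated KO library 2. The sources used here give no time of day for the sampling. Of 16 cytosolic heat shock genes, 4 rose and 1 fell. Hspb1, a small heat shock protein, was at 18.5 and 26.5 against 106 and 103 CPM (log2 fold change 2.22 ± 0.22, edgeR adjusted p = 0.00132) and kept its call in all 17 settings. The Hsp70 genes Hspa1a (9.65 and 11.5 against 24 and 26.6 CPM) and Hspa1b (16.3 and 19.9 against 46.6 and 49.9 CPM) are near-identical copies, so their split is uncertain.

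Several smaller lists also held calls. Of 18 targets of NF-kB, 3 fell, among them the adhesion molecule gene Icam1 (22.9 and 15.8 CPM in WT, 5.46 and 4.45 CPM in KO mice, log2 fold change -1.97 ± 0.27, edgeR adjusted p = 0.00424). Of 13 tested genes of type 2 immunity 4 fell, namely Retnlb, the receptor genes Il1rl1 (3.12 and 3.16 against 0.475 and 0.558 CPM) and Il4ra (50.3 and 42.4 against 21.9 and 23.1 CPM) and the transcription factor gene Gata3 (1.67 and 1.20 against 0.336 and 0.315 CPM). These lists kept 2 and 3 calls or more without any 1 untreated library. Of 14 neutrophil markers 3 fell and 1 rose, with the rise in the member of the highest level. The 3 falls became 0 without untreated WT library 2 or untreated KO library 3, 1 without either other untreated library and 1 with library totals alone, and the rise was lost without any 1 of the 4. Ly6g, from which the rise came, was at 167 and 142 against 350 and 316 CPM, whereas S100a8, an abundant protein of neutrophil granules and cytosol, was at 0.0322 and 0.0657 against 0 and 0 CPM. Dusp1, a phosphatase induced by glucocorticoids, rose from 21.7 and 24.01 to 57.1 and 89.9 CPM (log2 fold change 1.68 ± 0.22, edgeR adjusted p = 0.00422), and 3 of the 17 genes of that list were called higher, which became 1 without either untreated WT library or untreated KO library 3.

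Lists of tissues that a piece of colon could carry along held few calls. Of 2 tested pancreas genes Cela1, an elastase, rose from 131 and 115 to 363 and 361 CPM and made up nearly all of the list, while the other one, Cpb1, was at 0.338 and 0.362 against 0 and 0.258 CPM. Of 9 tested small intestine genes Fabp6, a bile acid binding protein of ileum, fell from 52.9 and 67.96 to 5.73 and 4.83 CPM (log2 fold change -3.52 ± 0.90, edgeR adjusted p = 0.0396). The calls for Cela1 and Fabp6 were lost without any 1 of the 4 untreated libraries, and that for Fabp6 also without DSS-treated WT library 3 or DSS-treated KO library 2. The squamous epithelium list summed to 11.1 and 9.23 CPM in WT and 9.23 and 7.11 CPM in KO mice, with Krt13 as its only called member of 11 in the 10-library fit. Adipose genes summed to 177 and 107 against 97.9 and 176 CPM, and 0 of 11 passed edgeR's test (2 at an unadjusted p under 0.05, 1 higher by DESeq2). For blood, 0 of 6 passed edgeR's test (5 at an unadjusted p under 0.05, 2 higher by DESeq2).

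A few genes had no read in the untreated libraries of 1 genotype. Sprr2d, a component of the cornified envelope, had 173 and 102 reads in the WT libraries and 0 in both KO libraries, at least 89.5-fold lower against a floor of 3 counts over the group, and did not pass the edgeR test (adjusted p = 0.0514). Ucp1, the marker of brown fat, had 220 reads in untreated WT library 2 and 0 in the other 3 untreated libraries, so it belonged to 1 library and not to a genotype. Il4i1b had 116 and 105 reads in the KO and 0 in the WT libraries and did not pass (edgeR adjusted p = 0.189). Gm36227, a noncoding RNA gene on chromosome 9, had 130 and 165 reads in the KO libraries and 0 in both WT libraries, at least 101-fold higher (edgeR adjusted p = 0.00246). In the DSS-treated mice Gm36227 had 431, 228 and 353 reads in the KO libraries and 0 in the 3 WT libraries. Sprr2d had 172, 356 and 189 reads in the DSS-treated KO libraries and 0, 27 and 159 in the DSS-treated WT libraries. Its order was thus reversed with DSS. Npcd, Gm15564 and Gm38495 had reads in 1 untreated library each, 399 in KO library 3, 1540 in KO library 2 and 2880 in WT library 3. These bounds cover counting error only.

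Genes beside Dnajc10 were read for local effects of the deletion. Of the 40 nearest tested genes, 20 on each side, from -3652 to 4363 kb around it, 1 rose and 1 fell, against a background of 9.85% of genes called. Sestd1 had a log2 fold change of 0.52 ± 0.14 (edgeR adjusted p = 0.0475) and Selenoh one of -0.83 ± 0.19 (edgeR adjusted p = 0.0245). Both calls were lost without any 1 of the 4 untreated libraries. The median of the 40 genes was -0.22.

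Most of the untreated differences did not carry over to mice with DSS, which were sequenced as separate libraries. Of the 793 genes higher in untreated KO mice, 198 (25%) had the same sign in DSS-treated mice, 71 were called in the same direction and 375 in the opposite one. Of the 1223 lower genes, 647 (52.9%) had the same sign, 238 were called lower again and 273 were called higher. In the DSS comparison 29.8% of all genes were called. The interferon-gamma list had a median log2 fold change of -1.21 with DSS against -3.27 without, the antiviral list one of -1.58 against -2.52, and smooth muscle one of -1.998 against 1.26.

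Genes were selected that separated all 5 KO from all 5 WT libraries and were also called in that direction with and without DSS. Of the 20472 genes tested, 61 higher and 207 lower genes met these criteria. Of them, 10 higher and 44 lower genes differed by over 4-fold in both conditions. The 44 included interferon, lymphocyte and immunoglobulin genes such as Ifit2, Oas2, Gzmb, Cd8a and Ighg2c. These and the examples below were chosen after their values had been seen. Wdfy1 (chromosome 1, 79702262 to 79776143), an endosomal adaptor, was at 55.1 and 52.9 CPM in untreated WT and 22.3 and 23.1 CPM in untreated KO mice (log2 fold change -1.25 ± 0.11, edgeR adjusted p = 0.000991), and at 51.0, 50.8 and 43.3 against 16.1, 17.3 and 16.1 CPM with DSS. Nnt (chromosome 13, 119335527 to 119409257), the mitochondrial transhydrogenase known to differ between substrains of C57BL/6, was at 41.2 and 42.2 against 21.5 and 23 CPM without DSS (log2 fold change -0.91 ± 0.11, edgeR adjusted p = 0.00314) and at 40.8, 39.5 and 41.7 against 13.9, 12.0 and 13.8 CPM with it. The WT libraries kept nearly 1 level of both genes with and without DSS. Gm43305 on chromosome 14 (54292441 to 54297488) was at 4.52 and 4.65 against 51.1 and 45.6 CPM without DSS (log2 fold change 3.40 ± 0.23, edgeR adjusted p = 0.000453) and had a log2 fold change of 3.43 with DSS.

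Along a stretch of 347 kb of chromosome 14 (25888403 to 26235744), 9 of 13 genes tested were higher in all 5 KO libraries and called in both conditions, by 1.66 to 1.90 on the log2 scale without DSS. They are Plac9a, Plac9b, Tmem254a, Tmem254b, Tmem254c, Cphx1, Cphx2, Cphx3 and Gm9780. Tmem254a was at 22.4 and 27.8 CPM in untreated WT and 86.6 and 72.8 CPM in untreated KO mice, and Tmem254b and Tmem254c had nearly the same values, so reads shared between the copies are uncertain. A further stretch of the same chromosome (69258332 to 69640470) held 5 such genes of 6 tested. Entpd4, a nucleotide-hydrolysing enzyme of the Golgi and lysosome, was among them at 17.8 and 20.4 against 34.4 and 35.4 CPM (log2 fold change 0.87 ± 0.10, edgeR adjusted p = 0.00292), as was Gm16867 at 0.241 and 0.312 against 2.47 and 2.90 CPM. Both stretches were chosen after the values had been seen, with their ends set at such genes. The shares of 9 of 13 and 5 of 6 therefore depend on that choice. Of all 20472 genes tested, 61 were higher in this way. The deletion lies on chromosome 2, and the origin of the mice and the genotype cannot be told apart in the genes of these stretches.

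**Figure D5:**
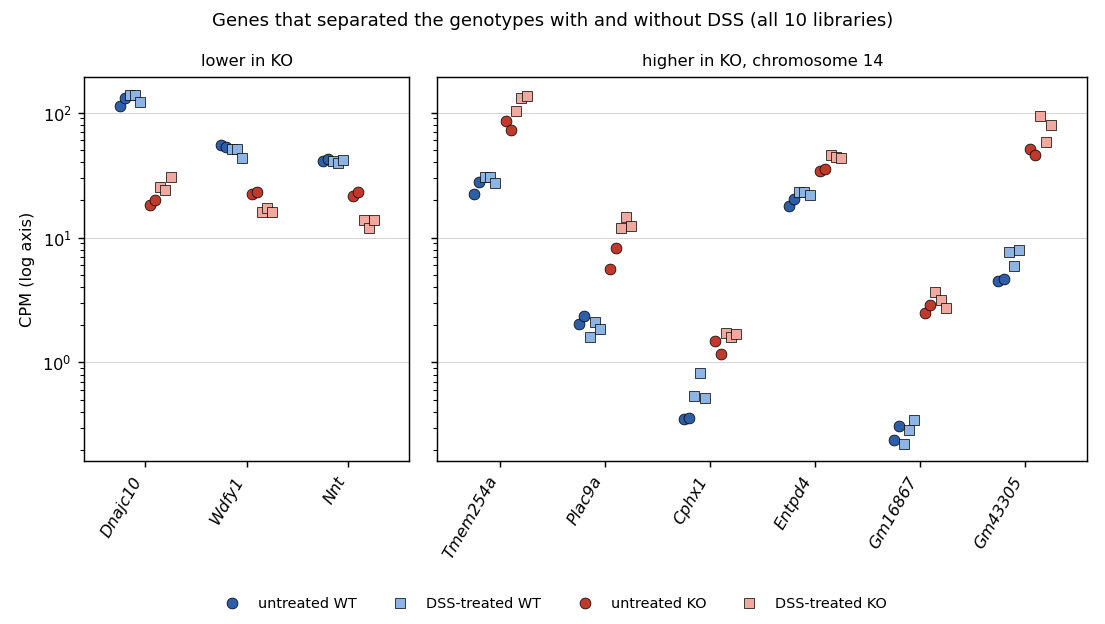
Levels of genes that separated the genotypes with and without DSS, in CPM on a log axis, with 1 point for each of the 10 libraries (blue WT, red KO, dark circles untreated, light squares DSS-treated). For each gene the 5 KO points lie on 1 side of the 5 WT points, as for Nnt with 41.2 and 42.2 CPM in untreated WT and 21.5 and 23 CPM in untreated KO mice.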

How the data were processed

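Colon RNA of WT and ERdj5-KO mice, untreated or given 2% DSS, was sequenced from stranded mRNA libraries. The deposited table, made by the authors, holds whole read counts per gene in 10 libraries, of which the untreated comparison used 2 WT and 2 KO libraries. The submitters' processing notes list StringTie (2.1.3b), Bowtie2 (2.3.4.1), HISAT2 (2.1.0), Trimmomatic (0.38) and the mm10 build, with no role or order for any of them. The sources used here do not say how strand and multiply mapped reads were treated. A further 30 columns of values per library were left aside, as were the authors' columns of fold changes and p-values for their own contrasts.

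The fits used edgeR (4.0.16), together with limma (3.58.1), in R (4.3.3). The default low-count filter of edgeR left 20472 genes, TMM factors set the scale, and 1 quasi-likelihood model held all 10 libraries, with 4 group means. Benjamini-Hochberg adjustment covered every tested gene, and genes with an adjusted p under 0.05 were called. Levels are CPM after TMM scaling. The code of the quasi-likelihood fit was tested on simulated data, whose values are not given.

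Genes were named by rule: the 15 largest rises and falls by fold and the 10 largest each way in CPM among called genes (mean log2 CPM of at least 1, groups not overlapping), the called neighbours of Dnajc10, genes at 0 in a group, up to 8 called members of each of 55 gene lists, and members of the ER, goblet cell, tight junction and cytokine lists. List counts cover members that passed the filter (936 of 962 genes were in the table). Members, lists and rule were chosen with earlier results of these data known. RefSeq (GRCm38.p6) gave positions for 29251 genes, and promoters were matched by gene ID.

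The 17 alternatives were RLE factors, library totals alone, DESeq2 (1.42.0), no low-count filter, a mean log2 CPM of at least 0, the untreated libraries alone, a block for the library number, and each of the 10 libraries left out. The thresholds of the study (p under 0.01, over 3-fold) were also applied. Results for some genes are not reported here.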

Additional observations from a re-analysis of the deposited data

Results flagged for a closer look

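For 13 of the 15 largest rises and 12 of the 15 largest falls, the genotype difference (KO minus WT, log2) differed between DSS-treated and untreated mice, by edgeR's interaction term at an adjusted p under 0.05. These genes were chosen for their untreated fold change, so the term is not an independent test of them. Among the rises the difference, DSS-treated minus untreated, was -7.17 for Cyp2c55, -5.29 for Slc30a10, -5.90 for Klk15, -2.82 for Fxyd4, -3.37 for Edn2, -2.59 for Ppm1l and -3.21 for Fam189a2. It was -3.02 for Fndc5, -2.39 for Car1, -2.30 for Clec2e, -3.80 for Odf3b, -2.27 for H1f3 and -1.95 for Mettl7b. Among the falls of interferon and lymphocyte genes it was 5.90 for Cxcl9, 3.59 for Gzmb, 3.80 for Tgtp1, 4.51 for Ccl5, 3.76 for Iigp1, 4.50 for Ido1, 3.39 for Tgtp2, 2.87 for Ms4a4b, 4.50 for Ccl8, 3.24 for Gzma and 2.19 for Nkg7, and for Clca4b it was 5.71.

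The summed level of 15 of the 55 gene lists separated the genotypes without overlap in both conditions, but in opposite directions. In untreated mice alone, 16 of the 55 lists were higher and 27 lower in KO mice without overlap. With 2 libraries a group, non-overlap alone is a weak criterion. No share of non-overlap over all genes tested is given here, so these list counts have no background beside them. The lists were also chosen with earlier results of these data known. The lists of goblet cells, T cells, cytotoxic lymphocytes, antiviral genes, neutrophils, mast cells and small intestine separated in the same direction in both conditions. In untreated mice the neutrophil sum (177 and 150 CPM in WT, 352 and 318 CPM in KO mice) was carried by Ly6g. The median log2 fold change of that list was -0.63, with 3 members called lower and 1 called higher. The differences in summed level were not tested. Lists that were lower in untreated and higher in DSS-treated KO mice had these ratios of summed CPM, KO to WT, in untreated mice. They were 0.737 for unfolded protein response targets and ER chaperones, 0.623 for disulfide isomerases and ER oxidation, 0.851 for ER-associated degradation, 0.445 for DNA replication and 0.868 for NF-kB targets. The ratio was 0.807 for NRF2 targets, 0.675 for type 2 immunity, 0.798 for germinal centre B cells, 0.693 for the follicle-associated epithelium and 0.802 for squamous epithelium. Lists that were higher in untreated and lower in DSS-treated KO mice were smooth muscle (2.41), pancreas (2.93, carried by Cela1), the circadian clock (1.63), xenobiotic metabolism (1.39) and transmembrane mucins (1.13).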

How the results depend on the processing

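Over 17 alternatives no called gene that the rule names changed sign, and Dnajc10 stayed between -2.56 and -2.78. The count of calls moved most. Against 2016 calls (793 higher, 1223 lower), DESeq2 gave 3513 (1603 and 1910), the 4 untreated libraries alone 3819 (1895 and 1924), and the study's thresholds of p under 0.01 and over 3-fold 977 (238 and 739). Leaving out 1 library gave 304 to 2900 calls, 92 to 1322 higher and 212 to 1648 lower, the fewest without untreated KO library 3 and the most without DSS-treated KO library 1 (higher) or 4 (lower and in all). The share of higher calls, 39.3% with all libraries, was 45.6% with DESeq2, 49.6% with the untreated libraries alone, and 21.9% and 19.1% without untreated WT library 2 or 3. With RLE factors there were 2025 calls, with library totals alone 1786, without a filter 1843 and at a mean log2 CPM of at least 0 2122, and the causes were not tested. Depth limits genes at or near 0 reads, such as Ifng in KO mice, whose fold rests on a few reads.

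The library number as a replicate block gave 2237 calls (882 higher, 1355 lower), 1703 of them shared with the fit without it. Libraries of the same number deviated together only weakly across 13630 genes (Pearson's r 0.19, Spearman's rho 0.11), and with 2 pairs the numbers were not shown to pair the samples.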
